A study of Mus musculus with 10 samples.

Results

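This section describes 33 mouse genes that cells switch on fast after stimulation or handling, the immediate early and dissociation stress genes, in 10 arrays of epithelial cells sorted from the mammary gland. The genes were taken from a fixed list of names, and a gene was represented by the brightest probe set annotated with that symbol alone. All 33 were measured, all 33 passed the filter on dim probe sets, and they stood among 15815 genes tested. Hspb1 alone had 2 such probe sets.

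The samples formed 3 groups, all from virgin females aged 8 to 12 weeks, with control and mutant littermates kept in the same cage. The luminal group held 3 arrays of CD29-low, CD24-positive, CD61-negative mature luminal cells of control mice. The mutant group held 3 arrays of CD29-high, CD24-positive cells of Pygo2 SSKO mice, a population of mammary stem and basal cells called basal here, and the control basal group held 4 arrays of the same population from control mice. Pygo2 encodes a PHD-finger cofactor of Wnt signalling. The title of the series describes mutant cells as Pygo2-null. What SSKO stands for, the promoter that drives the deletion and the number of animals per array are not given in the labels, which call the samples biological replicates. The p-values therefore measure the spread between arrays of a group, which may be partly technical. No SSKO luminal arrays were analysed here.

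Immediate early genes are transcribed without new protein synthesis when growth factors, stretch or stress activate kinases such as ERK and p38. Their products are transcription factors (AP-1, EGR, KLF and NR4A families) and feedback inhibitors (dual-specificity phosphatases and mRNA decay factors), and heat shock genes answer unfolded protein. Warm enzymatic digestion of a tissue is known to induce many of them, and every sample here was digested with collagenase at 37 °C for 1.5 h before antibody labelling and sorting. Cells carrying CD31, CD45 or TER119 were labelled as lineage cells, and the sorted gates were lineage-negative. No undigested tissue was among the samples, so induction by the procedure itself was not measured. Values are log2(intensity + 16), written as log2 levels, and fold changes are on that scale. Levels of different genes are not compared because probes differ in brightness.

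Basal and mature luminal markers separated the luminal from the basal arrays. Summed intensities of 10 basal markers were 9522 to 20165 in control luminal, 67013 to 73331 in SSKO basal and 68318 to 74853 in control basal arrays. Those of 9 measured mature luminal markers were 99494 to 102305, 25695 to 28348 and 18736 to 23238 in the same order of groups. Of 5 luminal progenitor markers, 3 were higher in control luminal than in control basal cells in limma's test, among them Aldh1a3 (log2 difference 2.72). The other 2 were lower, among them Itga2 (-1.65). Pygo2 was at 6.99, 5.94 and 5.86 in SSKO basal arrays, against 8.30, 9.09, 8.11 and 8.91 in control basal arrays (log2 difference -2.34, limma adjusted p = 0.0441). Array medians of the intensities lay between 205 and 228, and no batch label was used.

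Promoter sequence was available for 27 of the 33 genes (RefSeq, GRCm38.p6, 250 bases before to 50 bases after each annotated start), and not for Fosl1, Egr1, Egr3, Klf10, Myc and Ier2. The promoters below show the elements through which serum, cyclic AMP and heat are known to act, in genes whose levels differed between luminal and basal cells. Capitals mark CArG boxes, the core of the serum response element, in Egr2, Dusp5 and Zfp36. They mark short cores of the cyclic AMP response element, TGACG or its complement CGTCA, in Nr4a3, and the heat shock element, TTCNNGAANNTTC or GAANNTTCNNGAA, in Hsph1.
Egr2 promoter, chr10:67537619-67537918, plus strand: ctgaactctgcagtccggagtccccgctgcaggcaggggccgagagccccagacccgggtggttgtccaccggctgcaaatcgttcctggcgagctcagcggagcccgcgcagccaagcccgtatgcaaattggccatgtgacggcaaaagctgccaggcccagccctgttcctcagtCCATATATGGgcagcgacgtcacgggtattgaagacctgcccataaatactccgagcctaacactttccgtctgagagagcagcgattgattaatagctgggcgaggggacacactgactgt
Dusp5 promoter, chr19:53528895-53529194, plus strand: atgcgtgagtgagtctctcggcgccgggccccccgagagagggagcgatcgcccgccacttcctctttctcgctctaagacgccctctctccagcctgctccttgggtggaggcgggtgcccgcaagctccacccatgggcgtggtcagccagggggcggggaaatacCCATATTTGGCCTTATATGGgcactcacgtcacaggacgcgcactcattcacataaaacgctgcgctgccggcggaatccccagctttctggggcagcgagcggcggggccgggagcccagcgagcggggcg
Zfp36 promoter, chr7:28379179-28379478, minus strand: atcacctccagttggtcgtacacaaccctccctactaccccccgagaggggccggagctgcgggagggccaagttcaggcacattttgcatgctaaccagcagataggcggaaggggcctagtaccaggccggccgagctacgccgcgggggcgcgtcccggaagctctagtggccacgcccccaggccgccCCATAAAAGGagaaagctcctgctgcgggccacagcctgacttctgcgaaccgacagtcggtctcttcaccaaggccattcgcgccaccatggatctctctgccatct
Nr4a3 promoter, chr4:48045055-48045354, plus strand: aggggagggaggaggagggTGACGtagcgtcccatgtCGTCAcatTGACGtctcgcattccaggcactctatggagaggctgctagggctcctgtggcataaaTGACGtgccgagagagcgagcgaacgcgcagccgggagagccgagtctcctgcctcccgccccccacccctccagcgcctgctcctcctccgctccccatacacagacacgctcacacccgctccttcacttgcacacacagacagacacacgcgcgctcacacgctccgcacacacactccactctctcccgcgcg
Hsph1 promoter, chr5:149636287-149636586, minus strand: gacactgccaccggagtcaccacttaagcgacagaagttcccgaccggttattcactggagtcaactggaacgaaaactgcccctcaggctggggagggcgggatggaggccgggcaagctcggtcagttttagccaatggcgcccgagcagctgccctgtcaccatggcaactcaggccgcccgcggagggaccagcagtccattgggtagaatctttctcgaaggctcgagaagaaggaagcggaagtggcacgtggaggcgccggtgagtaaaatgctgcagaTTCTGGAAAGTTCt
The CArG box of Egr2 ended 63 bases before the annotated start, and the same box stood in the promoters of 3 of the 5 starts listed for Egr2. Dusp5 carried 2 adjacent boxes, and Zfp36 carried 1 that ended 49 bases before the start. A CArG box was found in 3 of the 27 promoter sets (11.1%), against 1.6% of 12459 genes tested that had a promoter. The full element TGACGTCA was found in Maff, Dusp1 and Btg2 (11.1%, against 3.17%). Its short core, which the full element contains on both strands, was found in 17 genes (63%, against 31.5%). The heat shock element was in Hsph1 only (3.7%, against 0.522%). It lay after the start, at bases 37 to 49 in the promoter shown and 16 to 28 for the other listed start. The EGR site GCGGGGGCG was in 7 genes (25.9%, against 5.7%), NF-kB sites in 7 (25.9%, against 12.3%), the TATA box TATAAA in 4 (14.8%, against 10.3%) and the AP-1 site TGACTCA or TGAGTCA in 0 (against 4.98%). Both strands were searched. The median GC content of the promoters was 64.7% for the 27 genes and 59.7% for the genes tested. A match describes these letters and does not show that a factor binds there. Elements outside these windows were not searched, so a gene without a match may carry one further away.

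The comparison of control luminal with control basal cells asked how the sorted populations differ, and the immediate early genes split. Of the 33 genes, 15 were lower (45.5%) and 7 were higher (21.2%) in luminal cells in limma's test at an adjusted p under 0.05, 22 in all (66.7%, against 44.3% of all genes tested). Among all genes tested, 19.7% were lower and 24.6% were higher, so the share of higher genes was near the background and the share of lower genes was above it. The median log2 difference was -0.31 for the 33 genes and 0.07 for all genes tested, and the median absolute difference was 0.69 and 0.37. The background of all genes tested was not matched for brightness. It reached down to a mean log2 value of 6.74, and the pseudocount shrinks differences at low signal. Most of the 33 genes lay well above that value, and the dimmest, Dusp2, averaged 7.99. The part of brightness in the contrasts with all genes tested was not tested. The lower genes were Fosl1, Fosl2, Maff, Egr2, Egr3, Klf10, the 3 NR4A genes, Myc, Dusp5, Dusp6, Gadd45b, Hspb1 and Hsph1, whereas Fos, Jun, Jund, Atf3, Klf2, Klf6 and Zfp36 were higher. An unadjusted p under 0.05 was reached by 23 genes (50.1% of all genes tested), and 12 differences were above 0 (57.1% of all genes tested). Groups did not overlap for 23 genes (69.7%), against 46.3% of all genes tested, with 17 lower (20.5% of all) and 6 higher (25.8% of all). Fewer cells with a transcript and less transcript per cell cannot be told apart in these bulk samples.

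**Figure D1:**
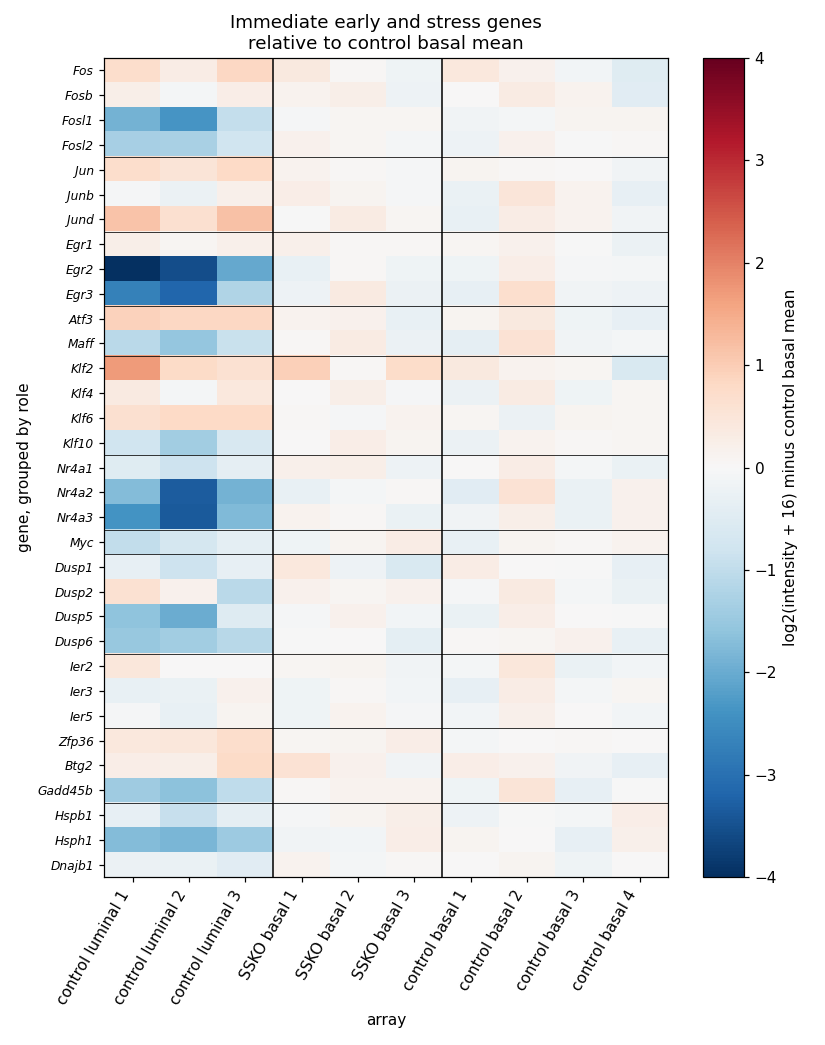
Log2 level of each of the 33 genes (rows, grouped by role) in each array (columns) minus the gene's mean over the 4 control basal arrays; red is higher and blue lower. The luminal columns hold the strong blues of Egr2, Egr3, Nr4a2 and Nr4a3, and the SSKO and control basal columns stay pale.

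AP-1 is a dimer of a FOS and a JUN protein. The FOS genes differed in opposite directions. Fosl1 had log2 levels of 10.60, 10.13 and 11.55 in control luminal arrays 1 to 3, 12.44, 12.57 and 12.57 in SSKO basal arrays 1 to 3, and 12.34, 12.42, 12.60 and 12.62 in control basal arrays 1 to 4. Fosl2 had log2 levels of 10.65, 10.68 and 11.19 in control luminal arrays 1 to 3, 12.16, 12.07 and 11.92 in SSKO basal arrays 1 to 3, and 11.77, 12.15, 11.98 and 12.05 in control basal arrays 1 to 4. For both genes the 3 luminal arrays lay below every basal array. Fosl1, which encodes FRA-1, was 3.33-fold lower in luminal cells (log2 difference -1.74, SE 0.26, adjusted p = 0.000242), and Fosl2, which encodes FRA-2, was 2.22-fold lower (log2 difference -1.15, SE 0.16, adjusted p = 0.000116). Fos had log2 levels of 12.64, 12.22 and 12.76 in control luminal arrays 1 to 3, 12.32, 11.95 and 11.76 in SSKO basal arrays 1 to 3, and 12.33, 12.08, 11.81 and 11.45 in control basal arrays 1 to 4. The luminal and control basal ranges of Fos overlapped, because luminal array 2 lay below control basal array 1. Fos was higher in luminal cells by 0.62 (SE 0.22, adjusted p = 0.0406). That call ended without control basal array 3 (log2 difference 0.58, adjusted p = 0.0863) or 4 (0.46, adjusted p = 0.0978), SSKO basal array 2 (0.62, adjusted p = 0.0536), or control luminal array 1 (0.57, adjusted p = 0.120) or 3 (0.51, adjusted p = 0.134). Fosb had a difference of 0.14 and did not pass (adjusted p = 0.627).

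Of the JUN partners, Jun and Jund were higher in luminal cells. Jun had log2 levels of 13.23, 13.05 and 13.34 in control luminal arrays 1 to 3, 12.67, 12.59 and 12.48 in SSKO basal arrays 1 to 3, and 12.63, 12.58, 12.55 and 12.38 in control basal arrays 1 to 4. Jund had log2 levels of 12.40, 11.89 and 12.41 in control luminal arrays 1 to 3, 11.23, 11.57 and 11.32 in SSKO basal arrays 1 to 3, and 10.96, 11.55, 11.40 and 11.10 in control basal arrays 1 to 4. All 3 luminal arrays lay above all 7 basal arrays for both. The differences were 0.67 for Jun (SE 0.12, adjusted p = 0.000769) and 0.98 for Jund (SE 0.18, adjusted p = 0.00102), or 1.59-fold and 1.98-fold. Junb, whose product is a weaker activator than JUN, had a difference of -0.02 (95% interval -0.46 to 0.41, adjusted p = 0.945). Of the other bZIP genes, the stress-induced Atf3 was higher. Atf3 had log2 levels of 13.01, 12.90 and 12.92 in control luminal arrays, against 12.20, 12.48, 11.92 and 11.75 in control basal arrays. Those luminal arrays spanned a narrow range above all control basal arrays (log2 difference 0.85, SE 0.18, adjusted p = 0.00253). Maff, a small MAF protein without a transactivation domain, went the other way. Maff had log2 levels of 9.73, 9.26 and 9.89 in control luminal arrays, against 10.44, 11.38, 10.65 and 10.73 in control basal arrays. The luminal arrays of Maff lay below all control basal arrays (log2 difference -1.17, SE 0.23, adjusted p = 0.00166).

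The zinc finger genes Egr2 and Egr3 had 2 of the 3 largest luminal deficits of the 33 genes, while Egr1 did not pass. Egr2 had log2 levels of 7.54, 7.96 and 9.46 in control luminal arrays 1 to 3, 11.22, 11.56 and 11.36 in SSKO basal arrays 1 to 3, and 11.36, 11.80, 11.49 and 11.43 in control basal arrays 1 to 4. Egr3 had log2 levels of 8.48, 8.01 and 9.97 in control luminal arrays 1 to 3, 10.98, 11.52 and 10.94 in SSKO basal arrays 1 to 3, and 10.84, 11.83, 11.04 and 10.95 in control basal arrays 1 to 4. Luminal array 3 was the highest luminal array for both, yet it lay below every basal array. Egr2 averaged 8.32 ± 1.01 in control luminal arrays (SD, n = 3) and 11.52 ± 0.19 in control basal arrays (SD, n = 4), a 9.20-fold lower level (log2 difference -3.20, SE 0.36, adjusted p = 2.55e-05). Egr3 was 5.09-fold lower (log2 difference -2.35, SE 0.40, adjusted p = 0.000630). Egr1 had log2 levels of 12.50, 12.33 and 12.47 in control luminal arrays 1 to 3, 12.47, 12.32 and 12.31 in SSKO basal arrays 1 to 3, and 12.35, 12.43, 12.24 and 12.01 in control basal arrays 1 to 4. The Egr1 levels overlapped among all 3 groups, and the luminal minus control basal difference was 0.18 (95% interval -0.10 to 0.46, adjusted p = 0.290). Egr1 encodes a serum-induced zinc finger factor of the same family.

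The orphan nuclear receptors of the NR4A family, which act without a known hormone ligand, were lower in luminal cells. Nr4a3 had log2 levels of 9.15, 8.19 and 9.79 in control luminal arrays 1 to 3, 11.69, 11.59 and 11.30 in SSKO basal arrays 1 to 3, and 11.41, 11.78, 11.30 and 11.74 in control basal arrays 1 to 4. Nr4a2 had log2 levels of 10.04, 8.46 and 9.91 in control luminal arrays 1 to 3, 11.48, 11.71 and 11.83 in SSKO basal arrays 1 to 3, and 11.33, 12.37, 11.51 and 11.94 in control basal arrays 1 to 4. Luminal array 2 was the lowest array for both genes. Nr4a3 was 5.70-fold lower (log2 difference -2.51, SE 0.30, adjusted p = 4.65e-05) and Nr4a2 4.99-fold lower (log2 difference -2.32, SE 0.36, adjusted p = 0.000304). Nr4a1 had log2 levels of 11.57, 11.24 and 11.72 in control luminal arrays, against 12.09, 12.37, 12.00 and 11.81 in control basal arrays. Nr4a1 was lower by a smaller amount (log2 difference -0.56, SE 0.17, adjusted p = 0.0211), and its call ended without control basal array 2 (-0.46, adjusted p = 0.0519) or control luminal array 2 (-0.42, adjusted p = 0.103). It also ended without control basal array 1 and SSKO basal arrays 1 and 3 (-0.55, adjusted p = 0.0525).

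**Figure D2:**
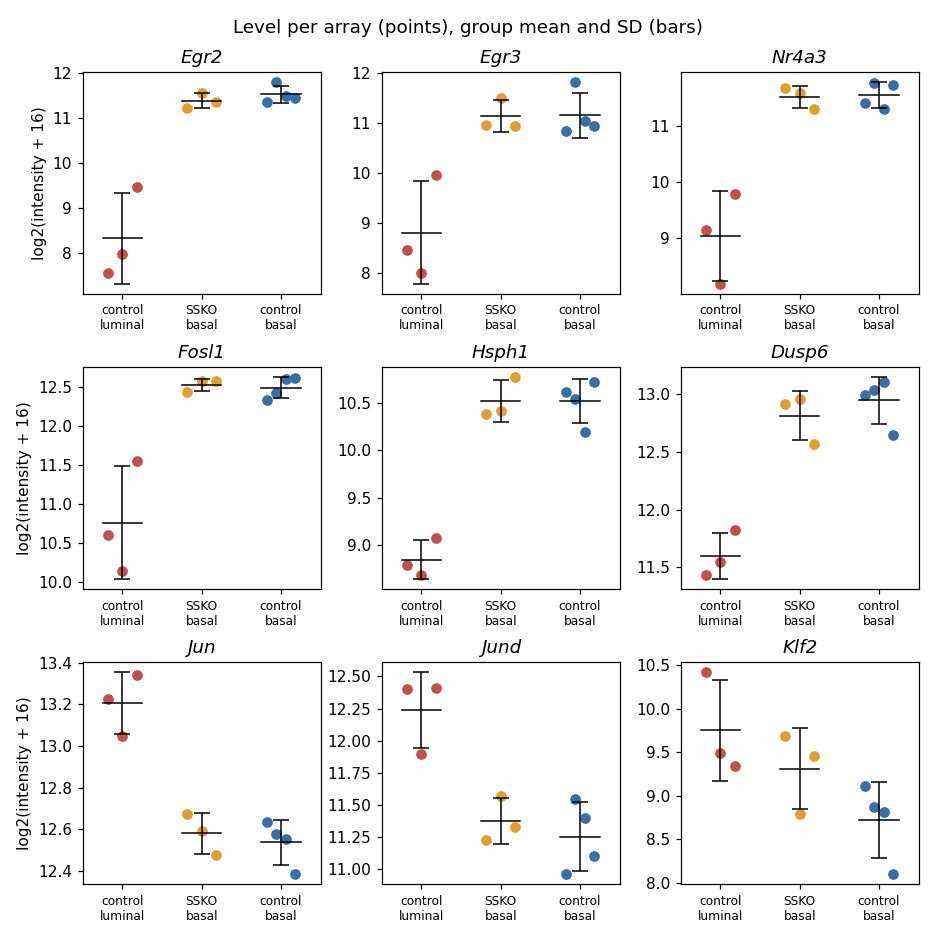
Log2 level (y axis) of 9 of the genes in each array (points) by group (x axis: control luminal, SSKO basal, control basal), with the group mean and SD as bars. Egr2, Egr3, Nr4a3, Fosl1, Hsph1 and Dusp6 have all luminal points below all basal points, Jun and Jund have them above, and Klf2 has SSKO points that overlap both other groups.

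The KLF genes, zinc finger factors with roles in differentiation and quiescence, also split. Klf6 had log2 levels of 12.97, 13.12 and 13.13 in control luminal arrays, against 12.39, 12.07, 12.42 and 12.40 in control basal arrays. Klf6 was higher in every luminal array (log2 difference 0.75, SE 0.12, adjusted p = 0.000425). Klf10 had log2 levels of 10.64, 10.06 and 10.80 in control luminal arrays, against 11.19, 11.57, 11.49 and 11.51 in control basal arrays. Klf10, a target of TGF-beta signalling, was lower in every luminal array (log2 difference -0.94, SE 0.18, adjusted p = 0.00114). Klf4 did not pass (log2 difference 0.23, adjusted p = 0.317). Klf2, which is also strongly expressed in endothelium, was higher in luminal cells by 1.02 (SE 0.31, adjusted p = 0.0200). Klf2 had log2 levels of 10.42, 9.49 and 9.34 in control luminal arrays, against 9.12, 8.87, 8.81 and 8.10 in control basal arrays. The Klf2 call ended without control luminal array 1, its brightest array (0.69, adjusted p = 0.100). Myc had log2 levels of 11.66, 11.94 and 12.25 in control luminal arrays, against 12.34, 12.74, 12.68 and 12.79 in control basal arrays. Myc, a driver of growth and ribosome synthesis, was lower in luminal cells (log2 difference -0.69, SE 0.17, adjusted p = 0.00743), and its groups did not overlap.

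Among the feedback phosphatases, the ERK-selective Dusp5 and Dusp6 were lower in luminal cells. Dusp6 had log2 levels of 11.43, 11.55 and 11.82 in control luminal arrays 1 to 3, 12.92, 12.96 and 12.57 in SSKO basal arrays 1 to 3, and 12.99, 13.03, 13.10 and 12.65 in control basal arrays 1 to 4. Dusp5 had log2 levels of 10.34, 9.97 and 11.44 in control luminal arrays 1 to 3, 11.91, 12.14 and 11.85 in SSKO basal arrays 1 to 3, and 11.70, 12.23, 11.97 and 11.93 in control basal arrays 1 to 4. Dusp6, the cytoplasmic ERK phosphatase, was 2.54-fold lower (log2 difference -1.34, SE 0.16, adjusted p = 3.65e-05), and Dusp5, its nuclear counterpart, was 2.59-fold lower (log2 difference -1.38, SE 0.28, adjusted p = 0.00212). Luminal array 3 was the highest luminal array for both genes and still lay below every basal array. Dusp1, which also acts on p38 and JNK, had a difference of -0.50 (SE 0.24, adjusted p = 0.111), with the luminal arrays at 12.75, 12.27 and 12.76 and the control basal arrays at 13.40, 13.12, 13.10 and 12.77. It passed after quantile normalization (-0.61, adjusted p = 0.0490). Dusp2 did not pass (-0.10, adjusted p = 0.843), and its luminal arrays spread widely, at 8.60, 8.15 and 6.89. The immediate early response genes Ier2, Ier3 and Ier5 did not pass, with differences of 0.16, -0.14 and -0.08. Their adjusted p-values in limma's test were 0.541, 0.569 and 0.701.

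The genes of mRNA decay and growth arrest differed from each other. Zfp36 had log2 levels of 12.23, 12.26 and 12.51 in control luminal arrays, against 11.73, 11.84, 11.87 and 11.82 in control basal arrays. Zfp36 encodes tristetraprolin, which destabilises AU-rich mRNAs, and all 3 luminal arrays lay above all 4 control basal arrays (log2 difference 0.52, SE 0.11, adjusted p = 0.00283). Gadd45b had log2 levels of 10.26, 10.05 and 10.66 in control luminal arrays, against 11.51, 12.21, 11.37 and 11.66 in control basal arrays. Gadd45b, a stress sensor that acts on the p38 and JNK pathways, was 2.57-fold lower in luminal cells (log2 difference -1.36, SE 0.20, adjusted p = 0.000219). Btg2, an antiproliferative cofactor of mRNA deadenylation, did not pass (0.42, adjusted p = 0.139), with luminal array 3 at 11.56 above the other luminal arrays.

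All 3 heat shock members had negative luminal minus basal differences, and 2 of them passed. Hsph1 had log2 levels of 8.79, 8.68 and 9.07 in control luminal arrays 1 to 3, 10.38, 10.41 and 10.77 in SSKO basal arrays 1 to 3, and 10.61, 10.54, 10.19 and 10.72 in control basal arrays 1 to 4. The luminal arrays lay well below the basal arrays, with an SD of 0.20, against 0.22 in SSKO basal and 0.23 in control basal arrays. Hsph1 encodes HSP105, an HSP110-class nucleotide exchange factor, and was 3.18-fold lower (log2 difference -1.67, SE 0.16, adjusted p = 9.36e-06). Hspb1 had log2 levels of 12.13, 11.56 and 12.12 in control luminal arrays, against 12.28, 12.48, 12.41 and 12.75 in control basal arrays. The small chaperone Hspb1 was lower (log2 difference -0.54, SE 0.17, adjusted p = 0.0224), a call that ended without control basal array 4 (-0.45, adjusted p = 0.0597) or control luminal array 2 (-0.35, adjusted p = 0.113). Its second probe set had luminal levels of 12.04, 11.47 and 12.04, against 12.24, 12.36, 12.32 and 12.66 in control basal arrays, in the same direction. The HSP40 gene Dnajb1 had a difference of -0.31 just short of passing (adjusted p = 0.0511), with luminal arrays at 10.68, 10.64 and 10.46 below control basal arrays at 10.93, 11.02, 10.73 and 10.93. It passed after quantile normalization (-0.36, adjusted p = 0.0272), without control basal array 3 (-0.37, adjusted p = 0.0320), and in 3 other settings given in the closing section.

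**Figure D3:**
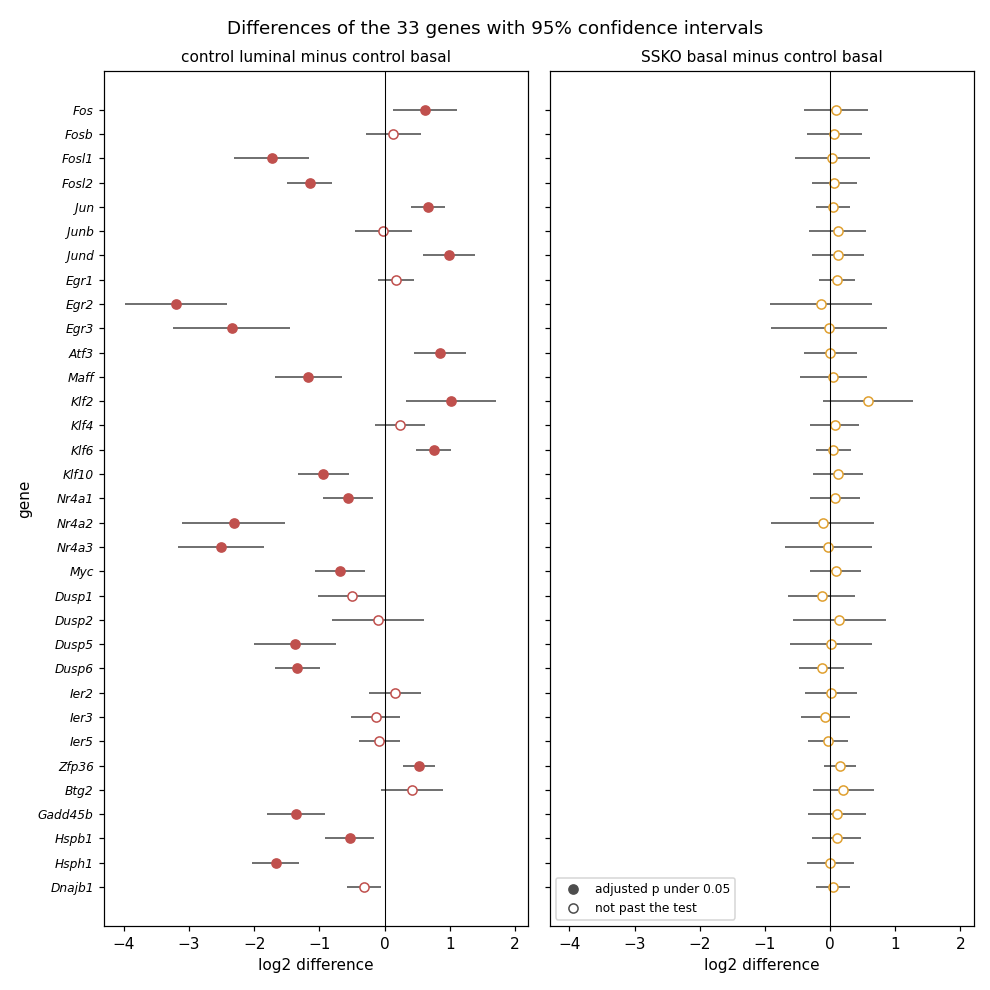
Log2 difference (x axis) of each of the 33 genes (y axis) with its 95% confidence interval, for control luminal minus control basal (left) and SSKO basal minus control basal (right); filled points passed at an adjusted p under 0.05. On the left 22 points are filled, and on the right none is.

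The luminal arrays differed from each other. Luminal array 3 was the highest of the 3 luminal arrays for 5 of the 7 genes higher in luminal cells (all but Atf3 and Klf2) and for 13 of the 15 lower ones (all but Nr4a2 and Hspb1). Basal markers moved with it: their summed intensity was 20165 in luminal array 3, against 11261 and 9522 in luminal arrays 1 and 2. The 5 luminal progenitor markers did too, with sums of 8664 in luminal array 3, against 4367 and 4329. Without luminal array 3 the count was 21 genes (6 higher, 15 lower), Egr2 differed by -3.77, Egr3 by -2.92 and Dusp5 by -1.80. Fibroblast markers were lower in luminal cells for 9 of 9 genes (including Dcn and Fn1, the brightest), with sums of 1757 to 7042 in control luminal and 15629 to 33529 in control basal arrays. Summed immune markers (10 of 12 past the filter) were 3672 to 4988 in control luminal, 2172 to 4281 in SSKO basal and 1790 to 3423 in control basal arrays. Most of the luminal sum came from Lcp1, an actin-bundling gene (log2 difference 3.96 in luminal against control basal cells), while Cd74 (-2.44) and 1 other marker were lower and 7 did not pass. The mean log2 level of the list was 7.14 to 7.44 in control luminal and 7.22 to 7.74 in control basal arrays. Pericyte markers (7) summed to 2612 to 3124, 2696 to 4445 and 2443 to 3596 in that order. Notch3 was higher in luminal cells (mean log2 level 10.98, against 8.48 in control basal cells) and made up most of the luminal sum, while 5 of the 7, Rgs5 (-1.26) among them, were lower, and their mean log2 level was 7.67 to 7.91 in control luminal and 8.26 to 8.73 in control basal arrays. The 1 erythroid marker measured had intensities of 139 to 143 in control luminal, 91.1 to 114 in SSKO basal and 85.8 to 104 in control basal arrays. In the SSKO comparison 1 of the 9 mature luminal markers passed, and none of the other marker genes did. The part of these cell types in the differences was not tested.

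**Figure D4:**
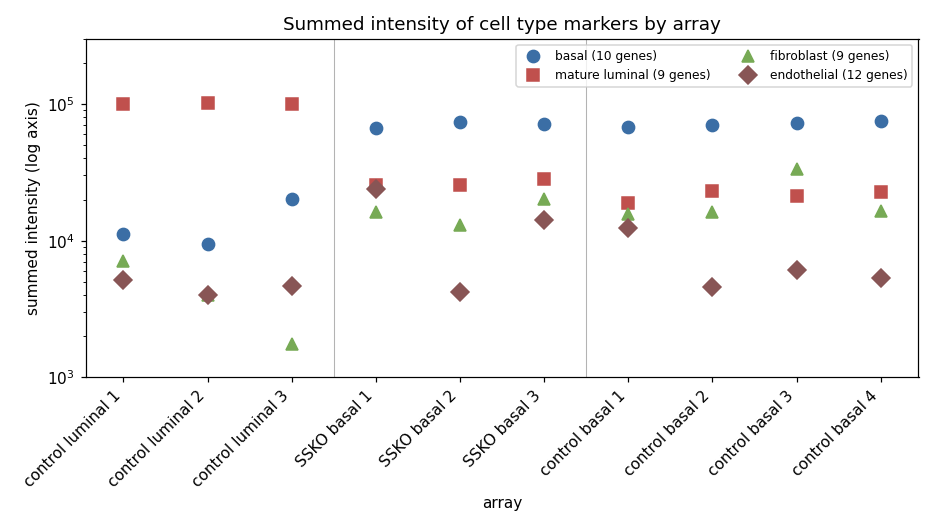
Summed intensity (y axis, log scale) of basal, mature luminal, fibroblast and endothelial marker genes in each array (x axis). Luminal array 3 has the highest basal sum of the luminal arrays, and SSKO basal arrays 1 and 3 and control basal array 1 have the highest endothelial sums.

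Companion genes of the same pathways were read from lists, and counts are luminal against control basal in limma's test. They are to be read against 24.6% higher and 19.7% lower (44.3% called) among all genes tested, a background not matched for brightness. The first list held ERK feedback genes and other dual-specificity phosphatases. Of its 13 genes tested, 3 were higher (23.1%) and 6 lower (46.2%), with a median of -0.38. The phosphatases Dusp4 (2.41, adjusted p = 1.26e-06) and Dusp10 (1.67) were higher, and Dusp14 (-1.87) and the Sprouty gene Spry4 (-1.63) were lower. Dusp4 thus went opposite to Dusp5 and Dusp6. Of 10 NF-kB genes, 5 were higher (50%) and 2 lower (20%), with a median of 0.55. The higher genes included the inhibitors Nfkbia (0.95) and Tnip1 (0.70), the NF-kB regulator Nfkbiz (0.60) and the subunit Relb (0.63). Of 15 heat shock genes, 1 was higher (6.67%) and 5 lower (33.3%), with a median of -0.20. The 40% called was near that of all genes. The lower genes included Cryab (-1.87), Bag3 (-1.28), Hspb8 (-1.25) and Dnaja1 (-0.67). Of 18 other bZIP genes, 2 were higher (11.1%) and 5 lower (27.8%), with a median of -0.16, and the 38.9% called was also near that of all genes. Maf (-3.42), Cebpb (-2.02), Atf4 (-0.97) and Crem (-0.90) were lower.

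Of 41 other early response genes, 9 were higher (22%, near the share of all genes) and 17 lower (41.5%), with a median of -0.45. Arc, a cytoskeletal immediate early gene of neurons, was lower by the widest margin (-4.52, adjusted p = 5.73e-06). Ccn2 (-3.53) and Gem (-3.17) were also lower, while Mycl was higher (2.43). Of 9 genes of the serum response factor pathway, 1 was higher (11.1%) and 4 lower (44.4%), with a median of -0.40. The actin cross-linker Flna (-2.28), the adhesion gene Vcl (-0.99) and the SRF cofactor Mrtfa (-0.59) were lower, and the cofactor Mrtfb was higher (0.59). None of the 106 companion genes tested passed in limma's test of the SSKO comparison, and 0 had an unadjusted p under 0.05.

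SSKO basal arrays were set against control basal arrays to ask what the absence of Pygo2 changes in this population. No change was detected in the immediate early genes: limma called 0 of 33, and 0 had an unadjusted p under 0.05. Among all genes tested 0.0379% were called (0.0316% higher and 0.00632% lower) and 3.03% had an unadjusted p under 0.05. Differences ran from -0.14 for Egr2 to 0.58 for Klf2, with a median of 0.05 (0.01 for all genes tested). A difference above 0 was seen for 25 genes (75.8%, against 52.1% of all genes tested) in the values as deposited, for 21 (63.6%, against 44.2%) after quantile normalization and for 18 (54.5%, against 39.5%) after centring each array on its median. None of these differences passed the test, and 70 of 726 values of single genes changed sign over the 22 alternatives of the closing section. The 33 genes varied together between arrays, as described below, so their directions are not separate observations. The 95% interval lay within 1 log2 unit of 0 for 32 genes and within 0.5 for 17. In simulated data of this comparison, 66% of changes of 1 log2 unit and 12% of changes of 0.5 were recovered. Each size of change was given to 50 genes there, whereas 6 genes were called in the real comparison. With fewer genes called the adjusted threshold is stricter, so these shares may be too high for the real comparison. As examples of the intervals, Egr2 differed by -0.14 (interval -0.92 to 0.65), Nr4a3 by -0.03 (-0.70 to 0.64) and Fos by 0.09 (-0.40 to 0.58). Jun differed by 0.04 (-0.22 to 0.30) and Hsph1 by 0.00 (-0.36 to 0.36). The intervals use 1 spread shared by all 3 groups, so luminal spread widens some of them. The SD of Egr2 was 1.01 in control luminal, 0.17 in SSKO basal and 0.19 in control basal arrays. That of Fos was 0.28, 0.29 and 0.38 in the same order.

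Groups did not overlap for 1 gene, Zfp36 (3.03%), against 4.46% of all genes tested (2.45% higher and 2.02% lower). Zfp36 was at 11.91, 11.92 and 12.07 in SSKO basal arrays, against 11.73, 11.84, 11.87 and 11.82 in control basal arrays, a difference of 0.15 (interval -0.10 to 0.40). Klf2 had the largest difference of the 33, 0.58 (-0.11 to 1.28). It was at 9.68, 8.79 and 9.46 in SSKO basal arrays, against 9.12, 8.87, 8.81 and 8.10 in control basal arrays. SSKO basal arrays 1 and 3 were above every control basal array. Endothelial markers moved with it among the basal arrays. Their 12 genes summed to 23948, 4225 and 14151 in SSKO basal arrays 1 to 3, against 12430, 4573, 6097 and 5328 in control basal arrays 1 to 4, with no marker listed at 0. In control luminal arrays they summed to 4009 to 5140, while Klf2 was at 10.42, 9.49 and 9.34. Without control basal array 1 and SSKO basal arrays 1 and 3 the Klf2 difference was 0.19, and it was 0.85 without SSKO basal array 2. The part of endothelial RNA in the Klf2 values was not tested.

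The spread between arrays of a group differed among the 33 genes. The median residual SD was 0.25 for the 33 genes and 0.21 for all genes tested. Of the 33, 25 were above that median of all genes, and 13 (39.4%) were in the 25% of all genes with the highest residual SD. In control basal array 2, 30 of the 33 genes lay above their group mean, with a median deviation of 0.21 log2 units, against 0.01 for all genes. Egr3 (0.66), Nr4a2 (0.58), Maff (0.58), Gadd45b (0.52) and Junb (0.47) were furthest above. In luminal array 3, 28 of 33 lay above (median 0.22), and in luminal array 2 only 3 did (median -0.22), while the medians of all genes there were -0.03 and 0.01. The SSKO basal arrays had 18, 22 and 11 genes above their mean.

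**Figure D5:**
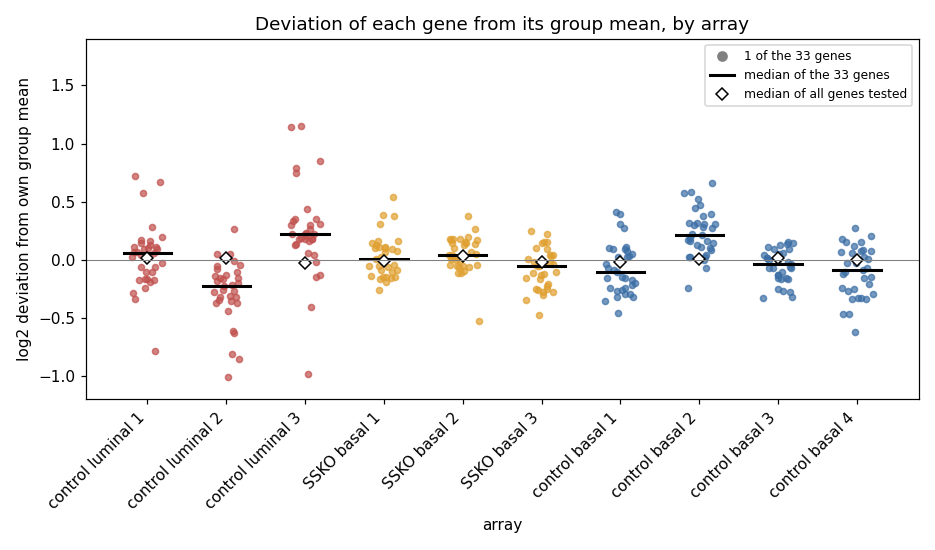
Log2 deviation of each of the 33 genes from its own group mean (y axis, points) in each array (x axis), with the median of the 33 genes as a bar and the median of all genes tested as a diamond. Control basal array 2 and luminal array 3 stand above 0 and luminal array 2 stands below, whereas all diamonds lie near 0.

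Deviations from the group means were correlated between genes over the 10 arrays, as a description of genes that share arrays. The median Pearson r over 528 pairs was 0.37, against -0.003 over all pairs of genes tested, and 37.7% of pairs had an r above 0.5, against 16.7%. Within the 7 basal arrays the shares were 36.7% and 22.4%. Fos and Jun had an r of 0.93 (0.96 in the 7 basal arrays), Fos and Btg2 0.89 (0.95) and Fos and Dusp1 0.90 (0.88). Egr3 varied with Dusp5 (0.97, and 0.94 in the basal arrays) and with Egr2 (0.88 and 0.96), whereas Dusp5 and Fosl1 had 0.92 over 10 arrays and 0.22 in the basal arrays alone. An r below 0 was found for 24.2% of pairs over the 10 arrays and for 31.4% in the 7 basal arrays. Over all pairs of genes tested the median r was -0.003 and 0.006, so an r below 0 was more frequent there. The following pairs were picked from the 528 for strongly negative values. Klf6 and Ier2 moved in opposite directions, with an r of -0.96 (-0.96 in the basal arrays). Jun and Hspb1 had -0.01 over 10 arrays and -0.97 in the basal arrays, Fos and Fosl1 0.19 and -0.93, and Dusp1 and Myc -0.63 and -0.92.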

How the data were processed

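The deposited table holds 1 linear intensity per probe set and array. Per the submitters' processing notes, Affymetrix Expression Console 1.1 and PLIER 2.0 were used to make these intensity values, with no step assigned to either. Any normalization between arrays is not stated in the labels. Detection calls were not used.

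The platform annotation gave 1 gene symbol to 21780 of 28815 probe sets. Values were analysed as log2(intensity + 16), and the pseudocount shrinks differences at low signal. Probe sets in the dimmest 25% by mean (under a log2 value of 6.74) were dropped, and each gene kept its brightest probe set. All 10 arrays were fitted with 3 group means in limma 3.58.1 (lmFit and eBayes, R 4.3.3, 7 residual degrees of freedom). Tests were two-sided, with Benjamini-Hochberg adjustment over 15815 genes and a threshold of 0.05. The number of arrays limits the precision. The member list, the companion lists and the marker lists were chosen with earlier results of these data known. Companion lists covered ERK feedback with other dual-specificity phosphatases, NF-kB, heat shock, bZIP, other early response and serum response factor genes. All 33 genes could be named, with up to 4 called genes of largest luminal difference per companion list and the 2 brightest per marker list. Marker lists covered basal, mature luminal, luminal progenitor, endothelial, immune, fibroblast, pericyte and erythroid cells. The steps were tested on simulated data with known changes, where 66% of genes changed by 1 log2 unit were recovered in the SSKO comparison and 74% in the luminal one. Each size of change was given to 50 genes, more than the 6 called in the real SSKO comparison, so the SSKO share may be too high. The simulated noise was drawn for each gene separately. Alternatives covered the pseudocount, the filter, scaling, probe set choice, replicate block, groups fitted, variance model, array weights and arrays left out. Figures were drawn with matplotlib 3.10.9.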

Additional observations from a re-analysis of the deposited data

Results flagged for a closer look

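In control basal array 2, Klf6 was at 12.07, far from the other 3 control basal arrays, which lay between 12.39 and 12.42. It was the only one of the 33 genes with a control basal array this far from the rest, and chance flags about 1 in 20 such groups. Most of the other genes were high in that array.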

How the results depend on the processing

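Limma called 0 of the 33 genes in the SSKO comparison under all 22 alternatives, with 0 at an unadjusted p under 0.05 in each except without SSKO basal array 2, where there was 1. In the luminal comparison it called 20 to 23. Over all genes, the SSKO count of 6 was 3 after quantile normalization and between 1 and 27 when 1 array was left out, with 27 without SSKO basal array 2, 2 without control basal array 2 and 1 without SSKO basal array 3. It was 0 (214 at an unadjusted p under 0.05) without control basal array 1 and SSKO basal arrays 1 and 3, where the single SSKO array takes its spread from the other arrays. In the luminal comparison 704 of 726 values of single genes kept their side of the threshold, 15 lost a call, 7 gained one and 0 called differences turned sign. Beyond the changes given above, the Fos call ended after quantile normalization (0.56, adjusted p = 0.0654) and when SSKO arrays were not fitted (adjusted p = 0.0519), and Dnajb1 passed with a pseudocount of 64, a stricter filter or a variance trend (adjusted p = 0.0376, 0.0435 and 0.0401). Same-numbered arrays paired only in part. Deviations of SSKO and control basal arrays of the same number correlated at 0.63, 0.46 and 0.05. The highest correlations with another number were -0.21, 0.17 and 0.43, so arrays 1 and 2 matched their own number best and array 3 did not. Luminal and control basal arrays of the same number correlated at -0.08, -0.08 and -0.06, below the best other number (0.39, 0.13 and 0.36). Under a replicate block the counts were 0 and 21 of the 33 genes, and 5 and 6962 of all genes, in the SSKO and luminal comparisons. Under that block the Fos (0.46, adjusted p = 0.0671) and Hspb1 calls ended (-0.45, 0.0648) and Dusp1 passed (-0.61, 0.0363). The median over all genes in the luminal comparison was 0.07 as deposited and 0.11 after median centring.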
